A study of Mus musculus with 8 samples.

Results

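Aldehyde dehydrogenases oxidise reactive aldehydes to acids with NAD or NADP as the acceptor, and different members clear lipid aldehydes, acetaldehyde, or intermediates of folate, lysine, carnitine and proline metabolism. High aldehyde dehydrogenase activity is a common marker of stem-like cells in breast tumours, and the Aldh1a enzymes of the family make retinoic acid. The 10 genes described here are named members of the family outside the Aldh1a enzymes, namely Aldh3a1, Aldh3a2, Aldh3b1, Aldh2, Aldh1b1, Aldh1l1, Aldh1l2, Aldh7a1, Aldh9a1 and Aldh18a1, out of 41730 rows in the deposited count table. They were selected on their names, but the selection was proposed with the log2 fold changes of the same comparison in view, where Aldh3a1 was among the largest falls, and it leaves out 7 other family members. Their differences between the groups are therefore given as a description of these libraries, without p-values, and support no statement about the family.

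RNA-seq was done on spheroids of 4T1 cells, a mouse mammary carcinoma line, grown in hanging drops in medium with serum. The shTlr7 group (4 libraries) carried a lentiviral hairpin RNA against Tlr7, an endosomal receptor for single-stranded RNA, and the shCtrl group (4 libraries) a lentiviral scrambled hairpin. The comparison addresses how targeting of Tlr7 changes the transcripts of the spheroids. The labels give neither the hairpin sequence nor whether separate transductions or cultures stand behind the 4 libraries of each group, so the spread behind each p-value may be technical.

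Library totals ranged from 18.1 to 93.8 M counts in shTlr7 and from 19.2 to 51.5 M in shCtrl. Tlr7 itself had 0, 4, 3 and 0 counts in shTlr7 replicates 1 to 4 and 2, 3, 2 and 2 counts in shCtrl replicates 1 to 4, so a knockdown was not detectable at this depth. Where Tlr7 had no count, a level of up to 0.166 CPM (counts per 1e6 counts) in replicate 1 and of 0.106 CPM in replicate 4 remains possible, counting error only. Along the second principal component, with 4.85% of the variance, replicate 4 of each group stood apart from the rest. Of 8 epithelial markers, 7 were expressed and Krt5 was at 0. Epcam and Cdh1 were higher in shTlr7 (log2 fold changes 0.15 and 0.20), and the 5 expressed keratins lower, with a log2 fold change of -3.50 for Krt14. The summed level of the 8 markers was 4099 to 4381 CPM in shTlr7 and 5577 to 6051 CPM in shCtrl. Of 7 leukocyte markers, Adgre1 and Lyz2 were at 0 and only Cd68 passed the filter on low counts, with a summed level of 31.1 to 44.3 CPM in shTlr7 and 22.1 to 26.96 CPM in shCtrl. Of 5 fibroblast markers, Pdgfra and Col1a1 passed that filter, with a sum of 43.1 to 48.0 CPM in shTlr7 and 43.7 to 45.2 CPM in shCtrl. The 5 endothelial markers summed to at most 0.643 CPM in shTlr7 and 0.377 CPM in shCtrl, and the 4 adipocyte markers to at most 0.361 CPM in shTlr7 and 1.53 CPM in shCtrl. The part of these marker levels in the results below was not tested.

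In these libraries the listed members changed in different directions. Aldh3a1 fell 21.2-fold and Aldh2 1.47-fold in shTlr7, Aldh1l2 rose 1.78-fold and Aldh3b1 1.18-fold, and 5 members did not pass the threshold. Aldh1l1 was too low to be tested. A gene was called where the adjusted p of edgeR's quasi-likelihood test over all 13393 genes tested was under 0.05. By that rule 2 of the 9 tested members were higher and 2 lower, while over all genes tested 56.1% were called, 29.3% higher and 26.8% lower. CPM values of the groups were fully separated for 4 of the 9 tested members and for 49.8% of all genes tested. The median log2 fold change of the 9 members was -0.033, against 0.011 over all genes tested. Since the same comparison was known when the members were proposed, nothing is read from these counts. Without both libraries numbered 4, 2 members were higher and 3 lower.

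**Figure D1:**
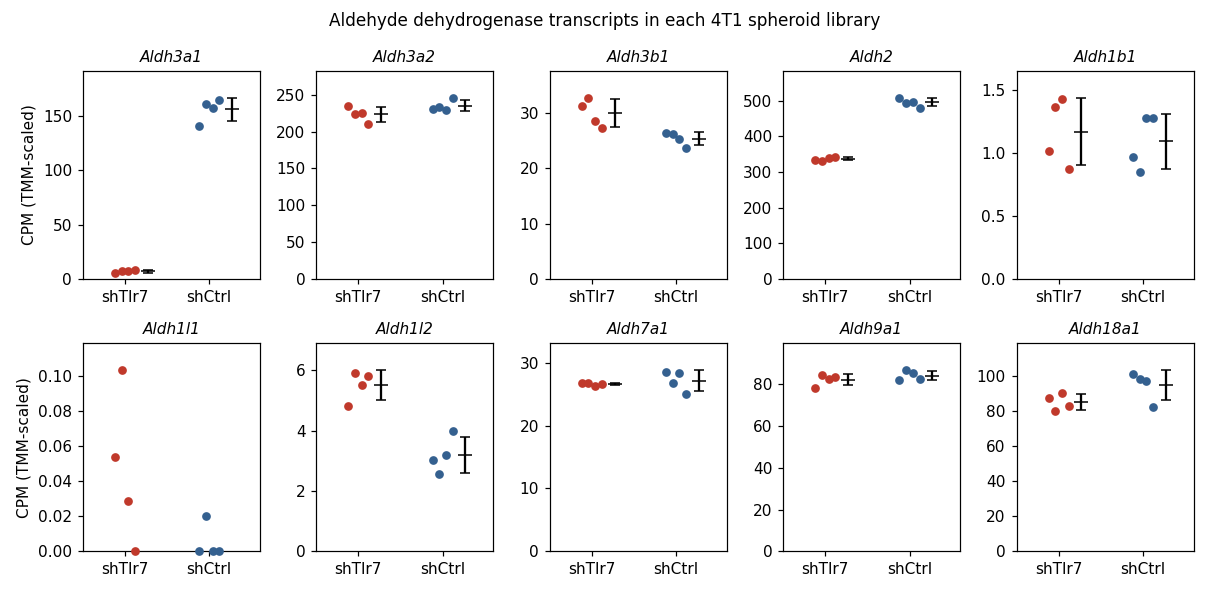
Level of each of the 10 members in each library, in TMM-scaled counts per 1e6 counts (CPM) on axes that start at 0, with shTlr7 on the left and shCtrl on the right of each panel. Points are libraries in the order of their replicate numbers and the bars are mean ± SD (n = 4), left out for Aldh1l1, which was not tested; Aldh3a1 sits between 5.52 and 8.63 CPM in shTlr7 and between 141 and 165 CPM in shCtrl.

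Aldh3a1 encodes a cytosolic enzyme that oxidises medium-chain and aromatic aldehydes and is abundant in the mammalian cornea. The gene (Entrez 11670) lies on chromosome 11, 61208510 to 61218418 on the plus strand of GRCm38.p6. It had 5.52, 7.45, 7.39 and 8.63 CPM in shTlr7 replicates 1 to 4, against 141, 161, 158 and 165 CPM in shCtrl replicates 1 to 4. All 4 shTlr7 libraries lay far below all 4 shCtrl libraries. The log2 fold change was -4.40 ± 0.10 (SE). In bulk RNA a smaller number of cells that express a gene and less RNA per cell cannot be told apart. The counts behind the shTlr7 values were 103, 722, 259 and 257, so the transcript remained measurable in every library. Its coefficient of variation within shTlr7 was 17.7%, where counting error alone gives 6.86%, and within shCtrl 6.80%, where counting error gives 1.66%. No exon of Aldh3a1 overlaps another gene, and none of its 50-base stretches occurs in a transcript of another gene in GENCODE M21.

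The next gene downstream, Aldh3a2, lies 5 kb from Aldh3a1 on the minus strand (chromosome 11, 61223417 to 61267528). It encodes the fatty aldehyde dehydrogenase of the endoplasmic reticulum, whose loss in humans causes Sjögren-Larsson syndrome. Its level was 235, 223, 225 and 211 CPM in shTlr7 replicates 1 to 4 and 231, 234, 229 and 245 CPM in shCtrl replicates 1 to 4. The groups overlapped, the log2 fold change was -0.07 ± 0.04 (SE), and the gene was not called. Under scaling by library size alone its sign turned to 0.03, also not called.

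Among 7 protein-coding neighbours within 250 kb of Aldh3a1, a window chosen after its fold change was seen, 3 had enough counts to be tested. Besides Aldh3a2 these were Usp22, which encodes a ubiquitin protease and fell by 0.19 ± 0.04 on the log2 scale (SE, edgeR adjusted p = 0.00247), and the potassium channel gene Kcnj12 at 0.55 ± 0.29 (edgeR adjusted p = 0.119, not called).

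Aldh3b1 encodes a membrane-associated enzyme that acts on fatty aldehydes from lipid peroxidation (chromosome 19, 3913491 to 3930898). It had 31.2, 32.6, 28.5 and 27.2 CPM in shTlr7 replicates 1 to 4, against 26.3, 26.1, 25.3 and 23.6 CPM in shCtrl replicates 1 to 4. Every shTlr7 library was above every shCtrl library, although the gap between the groups was narrow. The log2 fold change was 0.24 ± 0.07 (SE). Its paralogs Aldh3b2 and Aldh3b3 together share 8.97% of its 50-base stretches, but they had at most 4 and 2 counts in any library.

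Aldh2 encodes the mitochondrial enzyme that clears acetaldehyde from ethanol (chromosome 5, 121566027 to 121593824). It had 335, 332, 341 and 343 CPM in shTlr7 replicates 1 to 4, against 508, 494, 498 and 481 CPM in shCtrl replicates 1 to 4. The groups did not overlap and each was tight, with a coefficient of variation of 1.43% in shTlr7 and 2.24% in shCtrl. The log2 fold change was -0.55 ± 0.04 (SE). Aldh1b1, its mitochondrial relative (chromosome 4), was low at 1.02, 1.36, 1.43 and 0.873 CPM in shTlr7 replicates 1 to 4 and 0.971, 0.850, 1.27 and 1.28 CPM in shCtrl replicates 1 to 4. The groups overlapped, and the gene was not called at 0.20 ± 0.22 (log2 fold change, SE).

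Aldh1l1 and Aldh1l2 encode the cytosolic and the mitochondrial formyltetrahydrofolate dehydrogenase, which release the formyl group of folate as carbon dioxide and make NADPH. Aldh1l1 (chromosome 6) was close to absent, with 1, 10, 1 and 0 counts in shTlr7 replicates 1 to 4 and 0, 1, 0 and 0 counts in shCtrl replicates 1 to 4. Pooled over each group, 12 counts of 174 M in shTlr7 stood beside 1 count of 114 M in shCtrl, so the ratio was 7.88 (exact 95% limits 1.17 and 337, counting error only). Of the 12 counts, 10 came from shTlr7 replicate 2, the deepest library, and 13.4% of the exon bases of Aldh1l1 overlap other genes.

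Aldh1l2 (chromosome 10, 83487447 to 83534146) had 4.82, 5.92, 5.51 and 5.81 CPM in shTlr7 replicates 1 to 4, against 3.02, 2.55, 3.21 and 3.98 CPM in shCtrl replicates 1 to 4. Every shTlr7 library was above every shCtrl library. The log2 fold change was 0.83 ± 0.14 (SE). Of its exon bases, 14.1% overlap D10Wsu102e, and since a strand setting is not given in the sources used here, reads of that stretch cannot be assigned to either gene with certainty. Of its 50-base stretches, 13.6% also occur in transcripts of other genes, D10Wsu102e among them.

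Aldh7a1 encodes antiquitin, which oxidises an aldehyde of lysine breakdown and betaine aldehyde. Its level on chromosome 18 was 26.7, 26.8, 26.3 and 26.7 CPM in shTlr7 replicates 1 to 4 and 28.6, 26.7, 28.3 and 25.0 CPM in shCtrl replicates 1 to 4. The groups overlapped, with a log2 fold change of -0.03 ± 0.06 (SE) that was not called. Aldh9a1 encodes the aldehyde dehydrogenase of carnitine synthesis (chromosome 1, 167349963 to 167368530) and had 78.1, 84.2, 82.6 and 83.4 CPM in shTlr7 replicates 1 to 4 and 81.7, 86.6, 85.1 and 82.5 CPM in shCtrl replicates 1 to 4. It was not called either, at -0.03 ± 0.04 (log2 fold change, SE). Under scaling by library size alone the signs of Aldh7a1 and Aldh9a1 turned, to 0.08 and 0.07, still not called.

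Aldh18a1 encodes pyrroline-carboxylate synthase, which makes the precursor of proline and ornithine from glutamate (chromosome 19, 40550257 to 40588463). It had 87.5, 80.3, 90.7 and 83.1 CPM in shTlr7 replicates 1 to 4 and 101, 98.4, 97.4 and 82.2 CPM in shCtrl replicates 1 to 4. Only shCtrl replicate 4 lay within the range of shTlr7, and the gene was not called at -0.15 ± 0.06 (log2 fold change, SE). It was called at -0.22 without shCtrl replicate 4 and at -0.18 without shTlr7 replicate 3.

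To compare levels between genes, CPM was divided by the length of each gene's exons in kb. In shTlr7 the order was Aldh2 (65.9 ± 0.94 CPM per kb), Aldh3a2 (39.8 ± 1.79), Aldh9a1 (24.3 ± 0.80), Aldh18a1 (21.0 ± 1.1), Aldh3b1 (14.6 ± 1.21), Aldh7a1 (5.14 ± 0.040), Aldh3a1 (3.73 ± 0.66), Aldh1l2 (0.735 ± 0.066), Aldh1b1 (0.509 ± 0.12) and Aldh1l1 (0.0103 ± 0.0097), each as CPM per kb with SD over 4 libraries. No neighbours in that order overlapped in shTlr7. In shCtrl, Aldh3a1 at 80.4 ± 5.46 CPM per kb stood below Aldh2 at 96.6 ± 2.17 and above Aldh3a2 at 41.8 ± 1.31 CPM per kb (SD, n = 4). Further down the shCtrl order, Aldh9a1 overlapped with Aldh18a1, at 24.8 ± 0.66 and 23.3 ± 2.11 CPM per kb. Aldh1b1 overlapped there with Aldh1l2, at 0.476 ± 0.095 and 0.425 ± 0.079 CPM per kb. Aldh3a1 was thus the seventh member in shTlr7 and the second in shCtrl.

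The make-up of the members' transcripts differed accordingly. Aldh3a1 held 1.61%, 2.19%, 2.14% and 2.56% of the summed CPM per kb in shTlr7 replicates 1 to 4, against 25.8%, 28.7%, 28.3% and 29.8% in shCtrl replicates 1 to 4. The groups did not overlap. The summed level of all 10 members was 176 ± 1.65 CPM per kb in shTlr7 and 285 ± 3.68 CPM per kb in shCtrl, and without Aldh3a1 it was 172 ± 2.11 CPM per kb in shTlr7 and 205 ± 3.82 CPM per kb in shCtrl (SD, n = 4 each).

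**Figure D2:**
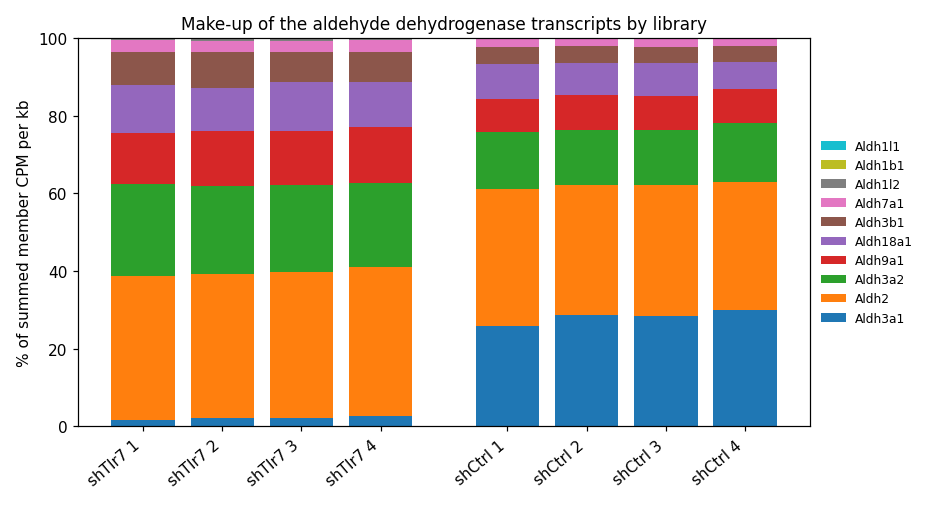
Share of each member in the summed CPM per kb of the 10 members, as stacked bars from 0 to 100% for each library, with the 4 shTlr7 libraries on the left and the 4 shCtrl libraries on the right. The Aldh3a1 segment at the bottom takes between 1.61% and 2.56% in shTlr7 and between 25.8% and 29.8% in shCtrl.

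Aldh3a1 belongs to the genes that the aryl hydrocarbon receptor (AhR), a ligand-activated transcription factor, is known to induce together with partner ARNT. Several other genes of that receptor's list were lower in shTlr7 as well, the receptor's own gene among them. A part of the receptor in the fall of Aldh3a1 was not tested. Of 11 listed genes 7 were tested, of which 5 were lower and 1 higher. Their median log2 fold change was -0.60 against 0.011 over all genes tested, 56.1% of which were called. Ahr itself had 34.6, 30.6, 29.0 and 35.4 CPM in shTlr7 replicates 1 to 4, against 91.8, 90.4, 85.1 and 100.2 CPM in shCtrl replicates 1 to 4, a log2 fold change of -1.51 ± 0.07 (SE, edgeR adjusted p = 2.33e-09). Cyp1b1, a cytochrome P450 that the receptor induces, had 35.6, 34.8, 40.4 and 40.2 CPM in shTlr7, against 102, 104, 98.9 and 102 CPM in shCtrl, and fell by 1.43 ± 0.06 on the log2 scale (SE, edgeR adjusted p = 2.56e-10). In both genes all shTlr7 libraries were far below all shCtrl libraries.

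Ahrr, which encodes the repressor of the receptor, had 0.333 ± 0.094 CPM in shTlr7, against 1.16 ± 0.14 CPM in shCtrl (SD, n = 4 each). Its log2 fold change was -1.87 ± 0.23 (SE, edgeR adjusted p = 1.35e-05). It rests on few counts, with 5, 27, 11 and 14 in shTlr7 replicates 1 to 4 and 22, 64, 19 and 27 in shCtrl replicates 1 to 4. Ahrr passed the low-count filter through its level in shCtrl. With a filter of at least 1 CPM in 4 libraries it was not tested, and 4 of 6 tested receptor genes were lower and 1 higher. Nqo1, a quinone reductase that NRF2 also induces, averaged 23.6 ± 2.66 CPM in shTlr7 and 36.0 ± 5.15 CPM in shCtrl, a fall of 0.60 ± 0.11 on the log2 scale (SE, edgeR adjusted p = 5.58e-04). The remaining called genes, named after their values were seen, moved less. Nfe2l2, which encodes NRF2, had a log2 fold change of -0.17 ± 0.04 (edgeR adjusted p = 0.00208), and Arnt of 0.19 ± 0.04 (edgeR adjusted p = 0.00217). Under scaling by library size alone Nfe2l2 was no longer called (-0.07, edgeR adjusted p = 0.142), which left 4 lower genes in the list. Tiparp, another target of the receptor, was not called at -0.09 ± 0.05 (edgeR adjusted p = 0.110), but it was called at -0.12 without shCtrl replicate 4 and at -0.14 without shTlr7 replicate 3. Cyp1a1, often its most inducible target, was too low to be tested, with 3, 11, 5 and 3 counts in shTlr7 and 1, 3, 1 and 0 counts in shCtrl. Its scaled level was 0.101 to 0.161 CPM in shTlr7 and 0 to 0.061 CPM in shCtrl. These values did not overlap and were higher in shTlr7, unlike those of Ahr and Cyp1b1, but rest on few counts. Without both libraries numbered 4, the receptor list again had 5 lower genes and 1 higher.

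**Figure D3:**
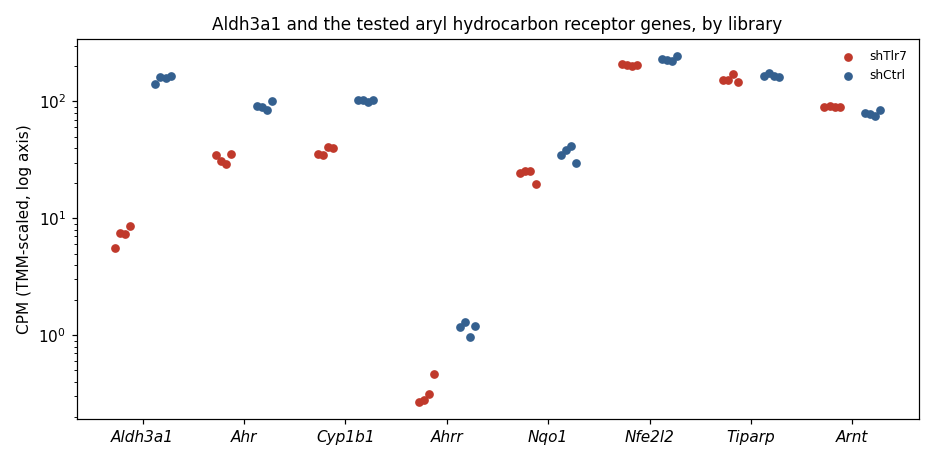
TMM-scaled CPM, on a log axis, of Aldh3a1 and of the 7 tested aryl hydrocarbon receptor genes in each library, with shTlr7 left of shCtrl for each gene. Points are libraries; Ahr lies between 29.0 and 35.4 CPM in shTlr7 and between 85.1 and 100.2 CPM in shCtrl, while for Tiparp the groups overlap.

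The core of the receptor's binding motif, GCGTG on either strand, was looked for in the RefSeq promoters of GRCm38.p6. These run from 250 bases before to 50 after a listed start, which need not be the outer end of the gene. The windows of Aldh3a2 and Aldh3b1 lie wholly within the gene coordinates given above. Of 32851 promoters, 32.4% hold it. Entries were found for 6 of the 10 members, and 3 of these hold the core, namely Aldh3a2 (1 match), Aldh9a1 (2 matches) and Aldh18a1 (3 matches). Aldh3a1, Aldh2, Aldh1l2 and Aldh7a1 were not searched, nor was Ahr. Of the 9 listed receptor genes with an entry, 5 hold it, namely Ahrr (3 matches) and Cyp1b1, Arnt, Tiparp and Cyp1a1 (1 match each). Of these, Arnt was higher in shTlr7 and Tiparp was not called. Nqo1 and Nfe2l2, both lower in shTlr7, hold no match, nor do the untested Cyp1a2 and Ugt1a6a. A tie between matches and changes was not tested. The promoters of Aldh3a2, which lies beside Aldh3a1, and of the falling genes Ahrr and Cyp1b1 are shown to set the matches side by side, 5′ to 3′ on the strand of the gene, with the core or its reverse complement in capitals (minus strand in all 3, chr11:61267137-61267436 for Aldh3a2, chr13:74292282-74292581 for Ahrr and chr17:79715012-79715311 for Cyp1b1). A match describes the letters only and is not a shown binding site.
Aldh3a2: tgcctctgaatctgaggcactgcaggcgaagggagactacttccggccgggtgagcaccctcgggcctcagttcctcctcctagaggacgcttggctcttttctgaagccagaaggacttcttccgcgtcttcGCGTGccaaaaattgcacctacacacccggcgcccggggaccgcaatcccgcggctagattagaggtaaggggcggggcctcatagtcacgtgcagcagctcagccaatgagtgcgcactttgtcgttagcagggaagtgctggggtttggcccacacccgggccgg
Ahrr: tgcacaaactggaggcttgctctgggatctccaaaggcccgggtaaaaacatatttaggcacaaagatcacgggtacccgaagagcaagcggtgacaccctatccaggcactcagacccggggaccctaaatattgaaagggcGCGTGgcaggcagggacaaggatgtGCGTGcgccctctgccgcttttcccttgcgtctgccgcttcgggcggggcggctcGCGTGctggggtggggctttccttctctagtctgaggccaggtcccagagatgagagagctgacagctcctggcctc
Cyp1b1: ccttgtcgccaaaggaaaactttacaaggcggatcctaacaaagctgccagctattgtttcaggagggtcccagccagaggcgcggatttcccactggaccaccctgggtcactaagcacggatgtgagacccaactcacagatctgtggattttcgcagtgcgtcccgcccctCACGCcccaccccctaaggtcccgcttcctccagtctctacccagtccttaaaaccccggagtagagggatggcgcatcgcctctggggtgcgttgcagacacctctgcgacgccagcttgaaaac

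Of 7 family members outside the list 4 were tested, of which 3 were higher and 1 lower, with 56.1% called over all genes tested. Aldh4a1, which turns the proline breakdown product pyrroline-carboxylate into glutamate, had 12.8, 11.6, 12.7 and 11.7 CPM in shTlr7 replicates 1 to 4, against 7.23, 6.64, 7.44 and 6.05 CPM in shCtrl replicates 1 to 4. It rose by 0.83 ± 0.09 on the log2 scale (SE, edgeR adjusted p = 2.44e-06), without overlap of the groups, but 32.5% of its exon bases overlap the annotated gene Gm21969. Aldh5a1, the succinate semialdehyde dehydrogenase of GABA breakdown, averaged 29.3 ± 1.88 CPM in shTlr7 and 19.9 ± 1.03 CPM in shCtrl and rose by 0.56 ± 0.06 (log2, SE, edgeR adjusted p = 6.07e-06), with 17.7% of its exon bases shared with other genes. Aldh16a1 averaged 21.98 ± 1.47 CPM in shTlr7 and 26.1 ± 1.65 CPM in shCtrl and fell by 0.25 ± 0.07 (log2, SE, edgeR adjusted p = 0.00572), a call that was lost under scaling by library size alone (-0.14, edgeR adjusted p = 0.0758).

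Aldh6a1, which acts in valine and pyrimidine breakdown, was called at 0.28 ± 0.10 (log2 fold change, SE, edgeR adjusted p = 0.0280), although its groups overlapped, with 14.6, 14.8, 11.7 and 13.3 CPM in shTlr7 replicates 1 to 4 and 10.7, 10.7, 10.3 and 13.3 CPM in shCtrl replicates 1 to 4. The call was lost when shCtrl replicate 1, 2 or 3 or shTlr7 replicate 1 or 2 was left out (0.23 to 0.25, edgeR adjusted p from 0.0692 to 0.103), and 18.6% of its exon bases overlap Bbof1. Aldh3b2, Aldh3b3 and Aldh8a1 were removed by the low-count filter. The retinaldehyde enzymes Aldh1a1, Aldh1a2, Aldh1a3 and Aldh1a7 were removed as well, with a summed level of 0.107 to 0.423 CPM in shTlr7 and 0 to 0.162 CPM in shCtrl.

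**Figure D4:**
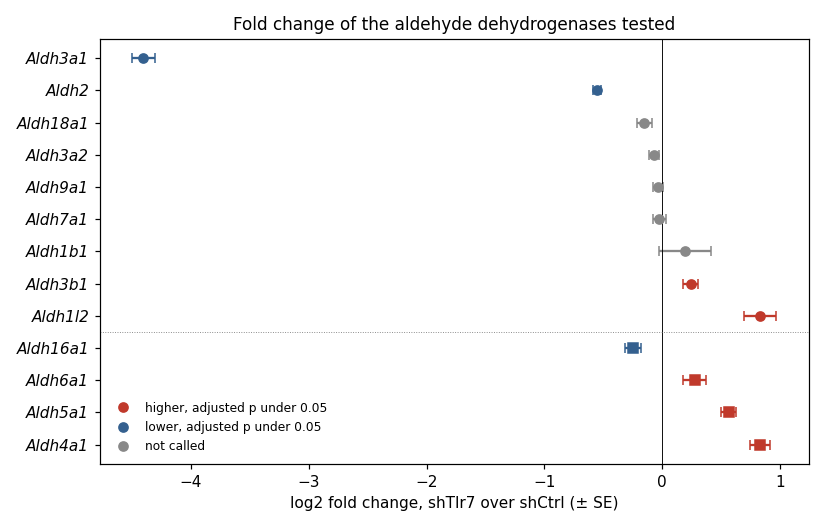
Log2 fold change of shTlr7 over shCtrl with its standard error for the 9 tested members (circles, above the dotted line) and the 4 other tested family genes (squares, below it), with the direction of the call in colour. Aldh3a1 at -4.40 stands apart from the other 12 genes, which lie between -0.55 and 0.83.

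Of 26 listed folate genes around Aldh1l1 and Aldh1l2, 23 were tested, of which 7 were higher and 5 lower, and the median log2 fold change was 0.009. The share called was close to the 56.1% over all genes tested. Gldc, a subunit of the glycine cleavage system, had 0.0592 ± 0.044 CPM in shTlr7, against 0.728 ± 0.14 CPM in shCtrl (SD, n = 4 each). Its log2 fold change was -3.44 ± 0.40 (SE, edgeR adjusted p = 7.85e-06). The counts were few, with 1, 8, 0 and 3 in shTlr7 replicates 1 to 4 and 10, 42, 16 and 16 in shCtrl replicates 1 to 4. Gldc passed the low-count filter through shCtrl only, so its fold change and adjusted p are a description. With a filter of at least 1 CPM in 4 libraries it was not tested. The methionine synthase reductase Mtrr had a log2 fold change of 0.40 and the folate carrier Slc19a1 of 0.46 (edgeR adjusted p = 6.45e-05 and 2.16e-04). The mitochondrial enzyme Mthfd2 rose by 0.48 ± 0.11 (SE, edgeR adjusted p = 0.00282), and the other 4 lower genes were Mthfs at -0.71, Shmt1 at -0.31, Mthfd1l at -0.20 and Atic at -0.16, all named after their values were seen. Atic lost its call without shCtrl replicate 2 or 3 or shTlr7 replicate 1 or 2 (edgeR adjusted p from 0.0511 to 0.0582), and Atic and Mthfd1l lost theirs under scaling by library size alone (edgeR adjusted p = 0.360 and 0.0860). Shmt2, named in the same way, was not called at -0.04 ± 0.10 (edgeR adjusted p = 0.720).

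Of 15 listed genes of proline and glutamate metabolism around Aldh18a1, 13 were tested, of which 5 were higher and 2 lower, and the median log2 fold change was 0.055. The share called was close to the 56.1% over all genes tested. Pycr1, the mitochondrial reductase that completes proline synthesis, had 6.70, 7.16, 6.76 and 7.25 CPM in shTlr7 replicates 1 to 4, against 13.5, 14.4, 12.7 and 15.6 CPM in shCtrl replicates 1 to 4, and fell by 1.01 ± 0.08 (log2, SE, edgeR adjusted p = 2.75e-07). The glutamine synthetase Glul fell by 0.92 ± 0.05 (log2, SE, edgeR adjusted p = 8.10e-09) and the glutaminase Gls2 rose by 0.52 ± 0.09 (log2, SE, edgeR adjusted p = 2.06e-04). Further higher genes, named after their values were seen, were the asparagine synthetase Asns at 0.51 and the transaminases Got1 at 0.20 and Got2 at 0.18 (edgeR adjusted p = 0.00577, 0.0442 and 0.0396). The groups overlapped for Got1 and Got2, which lost their calls with RLE scaling (edgeR adjusted p = 0.0597 and 0.0559) and with DESeq2 (adjusted p = 0.0632 and 0.0609), and both lost them without shCtrl replicate 3 or 4 or shTlr7 replicate 1, 2 or 3 (edgeR adjusted p from 0.0577 to 0.118). Got1 also lost its call without shCtrl replicate 1 and Got2 without shCtrl replicate 2. Without shCtrl replicate 3 or 4, or without shTlr7 replicate 1, 2 or 3, 3 genes of the list were higher.

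In the list of lysine, choline, carnitine and polyamine metabolism around Aldh7a1 and Aldh9a1, 12 of 20 genes were tested, of which 6 were higher and 3 lower, with a median log2 fold change of 0.30. Over all genes tested 56.1% were called, 29.3% higher and 26.8% lower. The spermine oxidase Smox fell by 0.64 ± 0.05, the polyamine oxidase Paox by 0.82 ± 0.08 and the spermine synthase Sms by 0.46 ± 0.05 (log2, SE, edgeR adjusted p = 4.58e-07, 2.66e-06 and 6.30e-06). The polyamine genes of the list went both ways: Sat1, a polyamine acetyltransferase, rose by 0.52 and the antizyme gene Oaz1 by 0.28 (log2, edgeR adjusted p = 0.0330 and 2.07e-04), while Odc1, Amd1 and Oaz2 were not called. Sat1, Oaz1, Odc1, Amd1 and Oaz2 were named after their values were seen. The glutaryl-CoA dehydrogenase Gcdh of lysine breakdown rose by 0.48 ± 0.06 (log2, SE, edgeR adjusted p = 8.81e-06). Chdh, the choline dehydrogenase that makes the betaine aldehyde which Aldh7a1 oxidises, was named after its values were seen. It had 24.2, 16.1, 16.6 and 13.4 CPM in shTlr7 replicates 1 to 4, against 3.29, 2.79, 2.45 and 4.55 CPM in shCtrl replicates 1 to 4, and rose by 2.42 ± 0.23 (log2, SE, edgeR adjusted p = 1.44e-05). Every shTlr7 library was above every shCtrl library.

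Aldh3a2 and Aldh3b1 oxidise fatty aldehydes, and a list around them holds genes of sphingoid base breakdown and of fatty aldehyde sources. It is called fatty aldehyde sources below, although some of its genes, Sgpp1 and Hacd2 among them, do not themselves release an aldehyde. Of the 14 listed genes 11 were tested, of which 2 were higher and 6 lower. The median log2 fold change was -0.12, where 56.1% of all genes tested were called. Under scaling by library size alone 5 were higher and 5 lower. The sphingosine kinase Sphk1 averaged 23.7 ± 2.05 CPM in shTlr7 and 44.5 ± 4.77 CPM in shCtrl (SD, n = 4 each) and fell by 0.92 ± 0.08 (log2, SE, edgeR adjusted p = 8.36e-07). The sphingosine-phosphate phosphatase Sgpp1 rose by 0.61 ± 0.06 (log2, SE, edgeR adjusted p = 1.14e-06), and the fatty acyl-CoA reductase Far1 and the dehydratase Hacd2 had log2 fold changes of -0.28 and -0.31 (edgeR adjusted p = 1.77e-04 and 2.55e-04). Phyh was the other higher gene, at 0.31. The lyase Sgpl1, which releases the aldehyde, was not called at 0.01 ± 0.04 (edgeR adjusted p = 0.874). Phyh and Sgpl1 were named after their values were seen.

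Alcohol dehydrogenases and aldehyde and carbonyl reductases act on the same substrates by other reactions. Of 22 listed genes 15 were tested, of which 2 were higher and 9 lower, with a median log2 fold change of -0.15, where 26.8% of all genes tested were lower, and scaling by library size alone left 4 lower. In this list the aldo-keto reductase Akr7a5 rose by 0.41 ± 0.06 and the carbonyl reductase Cbr1 by 0.37 ± 0.07, while Akr1b8 fell by 0.31 ± 0.05 and the formaldehyde-clearing Adh5 by 0.22 ± 0.04 (log2, SE, edgeR adjusted p = 6.44e-05, 4.55e-04, 1.54e-04 and 3.36e-04).

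**Figure D5:**
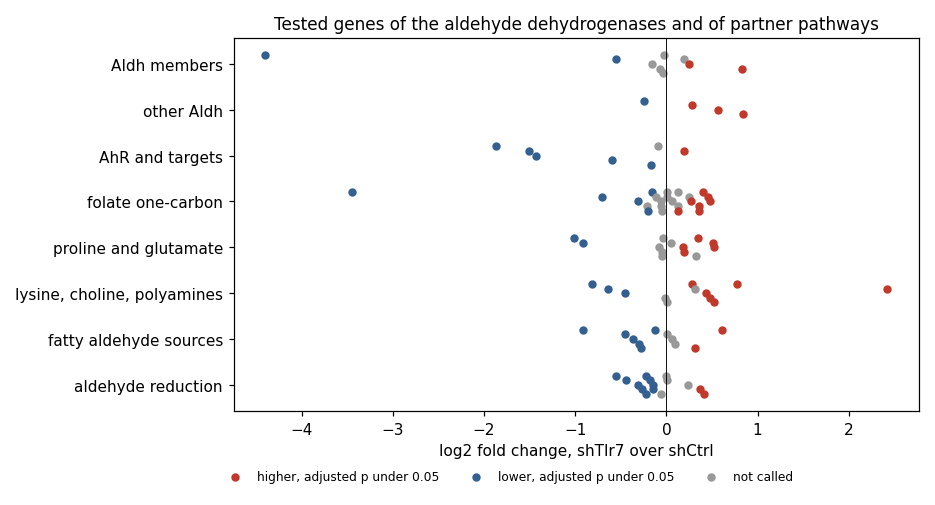
Log2 fold change of shTlr7 over shCtrl for each tested gene of the aldehyde dehydrogenases and of the partner pathways, 1 point a gene, coloured by its call in the fit over all genes. Points of every list lie on both sides of 0. Aldh3a1 at -4.40, Gldc at -3.44, which rests on few counts, and Chdh at 2.42 lie farthest out.

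By Pearson's r of log2 CPM over the 8 libraries, the named genes most like Aldh3a1 were Epb41l2, Fmnl1, Hoxa6, Mtmr11 and Sh3kbp1, each with r of 0.999. These libraries fall into separate groups, which sets most of that r, and 165 of 11613 genes compared reached at least 0.99. After each group's mean was removed, r lay between 0.738 and 0.886 for the 5 genes. They were picked as those with the highest r over the same 8 libraries. That choice favours a high remaining r, so nothing further is read from it. Their log2 fold changes ranged from -1.19 for Hoxa6 to -0.61 for Sh3kbp1, all smaller in size than that of Aldh3a1.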

How the data were processed

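The authors deposited 1 table of raw read counts per gene, with 1 column for each of the 8 libraries. STAR 2.7.5, DESeq2 1.32.0 and GRCm38 are named in the submitters' processing notes, without roles. For the counting program, its strand setting and its annotation, nothing is stated in the labels. Counts were tested in R 4.3.3 with edgeR 4.0.16 (filterByExpr, TMM scaling, robust quasi-likelihood fit, design with group alone) and Benjamini-Hochberg adjustment over all 13393 genes tested. The median log2 fold change was 0.011, and 3927 genes were higher and 3590 lower. Without TMM, library size scaling moved the median to 0.115 and the split to 5513 higher and 2491 lower. SE is the log2 fold change over the square root of F. The members and lists were chosen with earlier results of these data known. Named genes are the members, the other family genes, the 4 tested genes with the lowest p in each pathway list and the 5 most like Aldh3a1, except a few that are not reported here. Pycr3 was matched through its older symbol Pycrl. Gene lengths and overlaps come from GENCODE M21, coordinates and promoters from RefSeq (GRCm38.p6). On data simulated for this comparison (13248 genes), the test recovered 82% of genes changed 1.5-fold and 36% of those changed 1.2-fold. Among its calls there, 6.25% were false. At most 50 genes were changed at each fold size. That is a far smaller share than the 56.1% called here, so these rates need not carry over. No libraries of a group agreed within sampling noise (chi-square per degree of freedom from 2.18 to 22.5). Alternatives included RLE scaling, DESeq2 1.42.0 and limma-voom (limma 3.58.1).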

Additional observations from a re-analysis of the deposited data

Results flagged for a closer look

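Of 110 groups of 4 libraries examined among the named genes, 7 held a library that stood far from the other 3, where chance alone flags about 1 in 20. In shTlr7, replicate 3 was high for Shmt2 at 151 CPM (next 121 CPM), and replicate 1 was high for Sgpl1 at 223 CPM (next 214 CPM). In shCtrl, replicate 4 was high for Aldh6a1 at 13.3 CPM (next 10.7 CPM), for Cbr1 at 18.4 CPM (next 15.7 CPM) and for Mtmr11 at 88.1 CPM (next 85.5 CPM). The same library was low for Asns at 57.7 CPM (next 73.6 CPM) and for Got2 at 113 CPM (next 138 CPM). No member of the aldehyde dehydrogenases described was among them.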

How the results depend on the processing

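The calls of Aldh3a1, Aldh2, Aldh1l2 and Aldh3b1 kept their direction and their side of the threshold in all 19 alternatives tried, with log2 fold changes from -4.47 to -4.30 for Aldh3a1, from -0.58 to -0.45 for Aldh2, from 0.70 to 0.96 for Aldh1l2 and from 0.19 to 0.35 for Aldh3b1. Aldh18a1 became called in 8 of them. The cause of the changes below was not tested. Under scaling by library size alone the log2 fold change turned to 0.0317 for Aldh3a2, 0.0780 for Aldh7a1, 0.0710 for Aldh9a1, 0.0087 for Tiparp and 0.0594 for Shmt2, and the genes called were 0 lower among the other aldehyde dehydrogenases, 3 lower for folate, 4 lower for aldehyde reduction and 5 higher for fatty aldehyde sources. Sgpl1 turned to -0.0037 with RLE scaling and -0.0033 with DESeq2, and ranged from -0.0093 without shCtrl replicate 3 to 0.0148 without shTlr7 replicate 4 when each library was left out. The proline list had 3 higher genes with RLE scaling, with DESeq2 and at an adjusted p under 0.01, and from 3 to 6 when each library was left out. The aryl hydrocarbon receptor list had 2 higher genes with DESeq2 and without the filter on low counts, where aldehyde reduction had 4 higher. With the longest coding transcript as gene length, an alternative chosen after seeing the data, Aldh3a1 made up 24.3% of the summed member level in shCtrl. The replicate numbers were not taken as pairs, since not every same-numbered pair had a correlation over 0.1 (correlation of deviations -0.00676, 0.114, 0.118 and 0.380 for numbers 1 to 4, and 4 of 8 libraries were closest to their own number). With the replicate block 8339 genes were called, against 7517 without it, and Aldh18a1 (-0.15) and Tiparp (-0.10) became called. Thinned libraries and summed copies were also chosen after seeing the data. Depth limits Aldh1l1 and the Aldh1a enzymes.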
